A study of Mus musculus with 6 samples.

Results

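The data describe 10 genes for glutathione transferases outside the mu class in mouse liver: the alpha class genes Gsta2, Gsta3 and Gsta4, the pi class gene Gstp1, the theta class genes Gstt1, Gstt2 and Gstt3, and the kappa, zeta and omega class genes Gstk1, Gstz1 and Gsto1. Every array probe whose platform annotation names a member was taken, which gave 13 of 25697 probes and 10 of 16593 annotated genes. Gstp1 had 3 probes, Gsta3 had 2 and each other member had 1. RNA was taken from whole livers of C57BL/6 mice, wild type, that had been given Ad-Control (Ad-CMV), 3 mice, or Ad-MafG, 3 mice, 5 days earlier and fasted for 4 to 6 h, with 1 mouse per Illumina BeadChip array. All mice therefore carried an adenoviral treatment, and sex, age and dose are not given in the labels. The series title names overexpression of MafG, a small Maf transcription factor.

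Glutathione transferases join the tripeptide glutathione to reactive, electron-poor compounds, which makes them more soluble and readies them for export and breakdown to mercapturic acids. Classes differ in their substrates, and the liver carries high amounts of several of them. Many of these genes respond to NRF2, which binds antioxidant response elements as a dimer with a small Maf protein. The same DNA elements can be bound by small Maf dimers that lack an activating partner.

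Median signals of the arrays were 160.6, 180 and 165.7 in Ad-Control and 185.1, 185.8 and 181.6 in Ad-MafG. Detected probes numbered 12462, 12608 and 12079 in Ad-Control and 13004, 12802 and 13042 in Ad-MafG. Both measures were higher on every Ad-MafG array than on any Ad-Control array, so signals without normalization carry this difference. The only Mafg probe gave 1630.5, 1819 and 2027.1 in Ad-Control and 1620.6, 1469.2 and 1534.8 in the livers labelled Ad-MafG. Its log2 difference, Ad-MafG minus Ad-Control, was -0.54 with an SE of 0.11 (limma adjusted p = 0.0343), and the labels do not say whether the vector's insert contains the target of the probe. This probe does not check the labels, so each direction below rests on them. In a bulk sample, fewer cells of a type and less RNA per cell cannot be told apart. Probe signals are given below as deposited, without normalization, while log2 differences and tests refer to background-corrected, quantile-normalized log2 intensities. Levels of different genes are not compared with each other, since probes differ in how well they bind.

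Gsta2, Gsta4 and Gstt3 rose in the livers labelled Ad-MafG, 6.11-fold, 3.25-fold and 1.75-fold. No member fell past the threshold, and 7 did not pass the test. The limma adjusted p was below 0.05 in the higher direction for 3 of the 10 members, against 6.28% of the 8827 genes tested. The lower direction had 0 of the 10, against 3.6% of all genes. An unadjusted limma p under 0.05 was found for 4 of the 10, namely the 3 that rose and Gstt2. Over all genes, 2630 of the 8827 tested had such a p, so a low unadjusted p was common. The members' median log2 difference was 0.08, beside -0.02 over all genes tested. When arrays were scaled to a common median rather than quantile normalized, the members' median was -0.021. All 13 probes were detected on all 6 arrays, so every member passed the filter for dim probes in both groups.

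**Figure D1:**
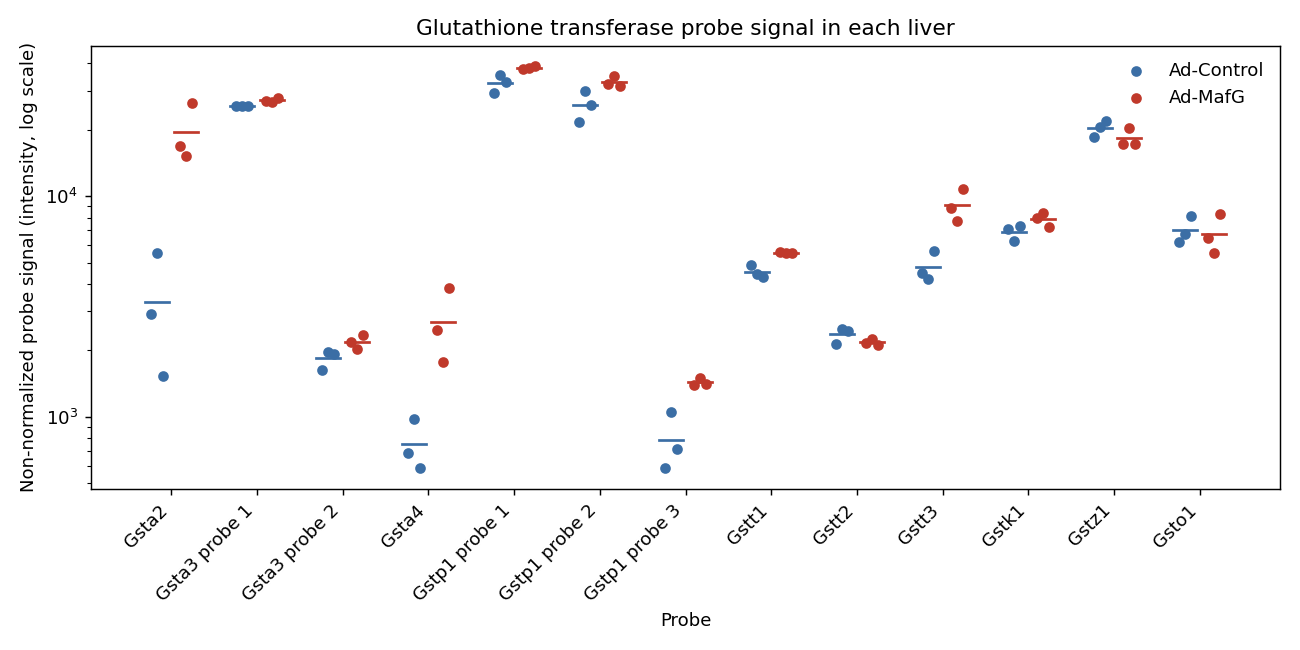
Non-normalized signal (intensity, log scale) of the 13 probes in each of the 6 livers; points are livers, horizontal lines are group means, and probes of a gene are numbered from the brightest. Gsta2, Gsta4, Gstt3 and probe 3 of Gstp1 have all 3 Ad-MafG livers above all 3 Ad-Control livers with the widest gaps, while the points of Gsto1 overlap.

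Promoter sequences of 8 of the 10 members were found in the RefSeq promoter table of GRCm38.p6. The 250 bases before the start are shown for Gsta2, the member that rose most, and for Gsta3 and Gstp1, which hold the only matches among the members to the motifs searched. Capitals mark those matches. Each sequence is written 5′ to 3′ on the strand of the gene.
Gsta2, chr9:78347146-78347395, minus strand: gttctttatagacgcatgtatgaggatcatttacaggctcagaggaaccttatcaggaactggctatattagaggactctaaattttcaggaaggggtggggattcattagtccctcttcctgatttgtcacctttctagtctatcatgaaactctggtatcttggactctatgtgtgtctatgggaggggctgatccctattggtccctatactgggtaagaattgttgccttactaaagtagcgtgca
Gsta3, chr1:21240335-21240584, plus strand: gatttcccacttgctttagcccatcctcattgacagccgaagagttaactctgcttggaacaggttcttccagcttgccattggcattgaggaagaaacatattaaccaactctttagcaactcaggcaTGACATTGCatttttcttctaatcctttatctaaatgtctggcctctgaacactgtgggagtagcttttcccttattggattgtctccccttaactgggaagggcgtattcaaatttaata
Gstp1, chr19:4037913-4038162, minus strand: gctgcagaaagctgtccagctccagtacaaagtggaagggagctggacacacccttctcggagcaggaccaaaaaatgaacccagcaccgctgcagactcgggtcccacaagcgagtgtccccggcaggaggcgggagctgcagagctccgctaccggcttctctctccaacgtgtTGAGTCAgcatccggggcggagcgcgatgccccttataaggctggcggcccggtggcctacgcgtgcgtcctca

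The motifs were the core of the antioxidant response element, TGACNNNGC, and the AP-1 site TGACTCA, searched on both strands over 300 bases, 250 before the start and 50 after it. They can overlap, since TGACTCA followed by GC holds both. The core occurred in Gsta3 alone among the 8 members, from -121 to -113 of the start, and in 12.4% of all 32851 promoter windows. TGACTCA occurred in Gstp1 alone, on the opposite strand from -74 to -68, in 5.9% of all these genes and in 5.2% of all windows. The windows of Gsta2, Gstt1, Gstt3, Gstk1, Gstz1 and Gsto1 held neither string of letters. A match is a description of the sequence and not a binding site. Other spellings of these elements, and elements farther from the start, were not searched, so a window without a match may still hold one.

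Alpha class enzymes conjugate electrophiles and reduce lipid hydroperoxides. Gsta2 gave signals of 2919, 5496.9 and 1530.1 in Ad-Control livers 1, 2 and 3 and of 16917.4, 15148.7 and 26381.2 in Ad-MafG livers 1, 2 and 3. The groups did not overlap, although the Ad-Control livers themselves spanned 3.59-fold. After normalization the Ad-Control livers averaged 11.56 ± 0.88 (SD, n = 3) on the log2 scale and the livers labelled Ad-MafG 14.17 ± 0.46 (SD, n = 3). The log2 difference was 2.61 with an SE of 0.43 (limma adjusted p = 0.0187), and the 95% interval of the fold ran from 3.01 to 12.4.

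Gsta4, whose enzyme is known for clearing hydroxyalkenals formed when lipids are oxidised, gave 685.1, 975.7 and 582 in Ad-Control and 2460.6, 1769.6 and 3840.8 in Ad-MafG. The lowest Ad-MafG liver lay above the highest Ad-Control liver. The log2 difference was 1.70 with an SE of 0.30 (limma adjusted p = 0.0213), and the 95% interval of the fold ran from 2.0 to 5.26. Gsta2 and Gsta4 ordered the livers alike: within Ad-Control, liver 2 was highest and liver 3 lowest, and within Ad-MafG, liver 3 was highest and liver 2 lowest.

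Gsta3, which encodes a further alpha class enzyme abundant in mouse liver, had log2 differences near 0. Its brighter probe gave 25771.1, 25650.4 and 25706.7 in Ad-Control and 26984.8, 26856.5 and 27871.6 in Ad-MafG. It was among the brightest of the array, with 0.276% of probes above it. Its log2 difference was 0.06, with a 95% interval from -0.16 to 0.27 (limma adjusted p = 0.715), and with median scaling it was -0.15. The dimmer Gsta3 probe gave 1619.7, 1972.8 and 1924 in Ad-Control and 2184.8, 2016 and 2357.2 in Ad-MafG, and a log2 difference of -0.01 after normalization, with an interval from -0.26 to 0.23. The 95% intervals of both Gsta3 probes lay below those of Gsta2 and Gsta4.

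Gsta1, an alpha class gene that is not a member, was close to Gsta2 in sequence and in values. It gave 2650.5, 5809.2 and 1309.7 in Ad-Control and 14567.5, 14910.6 and 20294 in Ad-MafG, with a log2 difference of 2.51 and an SE of 0.47 (limma adjusted p = 0.0256). How much of either signal comes from the RNA of the other gene is uncertain. By RefSeq's annotation of GRCm38.p6, Gsta4, Gsta1 and Gsta2 lie near each other on chromosome 9, with 4 other protein-coding genes between Gsta1 and Gsta2, and Gsta3 lies on chromosome 1. The alpha class probes that rose therefore belonged to the chromosome 9 genes, which is a description of 4 genes.

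Genes with values most like those of Gsta2 were sought among all genes tested, by the root mean square distance between log2 values over 6 arrays, each gene centred on its own mean. The nearest non-members were the protease inhibitor gene Slpi at a distance of 0.12, Gpnmb, a glycoprotein gene of macrophages and other cells, at 0.14, and Gsta1 at 0.15. Slpi had a log2 difference of 2.74 and Gpnmb of 2.46 (limma adjusted p = 0.0141 and 0.0258). Since these genes were chosen by their distance to Gsta2, log2 differences like its own follow from the choice.

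Gstp1 encodes the pi class enzyme, which is plentiful in male mouse liver and also binds the stress kinase JNK. Its 3 probes gave different sizes of change. The brightest, which stands for the gene in the gene counts, gave 29239.1, 35624.5 and 33110.1 in Ad-Control and 37698.7, 38122.2 and 38913.2 in Ad-MafG. The second gave 21610.9, 29851.8 and 25884.2 in Ad-Control and 32411.5, 34986.9 and 31618.1 in Ad-MafG. The dimmest gave 585, 1050.9 and 712.2 in Ad-Control and 1397.7, 1491.5 and 1413 in Ad-MafG. On each probe, all 3 Ad-MafG livers lay above all 3 Ad-Control livers, and Ad-Control liver 1 was the lowest and liver 2 the highest of its group.

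The log2 difference was 0.23 with an SE of 0.10 for the brightest Gstp1 probe (limma adjusted p = 0.181), 0.30 with an SE of 0.12 for the second (adjusted p = 0.153 over all probes) and 0.72 with an SE of 0.17 for the dimmest (adjusted p = 0.0404 over all probes). The dimmest probe thus passed the threshold and the other two did not. Between the dimmest and the brightest probe the within-array difference changed by 0.49 on the log2 scale from Ad-Control to Ad-MafG, with an exact permutation p of 0.1, two-sided, the smallest that 3 against 3 livers allow. Only 0.0778% of all probes were brighter than the brightest Gstp1 probe, whose signals compare with a maximum per array between 41525.2 and 44377.3. With median scaling the 3 log2 differences, from the brightest probe to the dimmest, were -0.000655, 0.14 and 0.81. For the brightest probe, the authors' deposited table has mean scaled intensities of 34691.9 (Ad-Control) and 34128.1 (Ad-MafG), with a difference score of -0.252, and gives the dimmest 684.6 and 1156.3 with a score of 31.1. The 3 probes carry the same RefSeq accession in the platform annotation, and which stretch each one binds was not analysed here.

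Gstp2, the neighbouring pi class gene on chromosome 19, is close to Gstp1 in sequence, and its separate value is uncertain. Its probe gave 362.1, 1062.3 and 387.2 in Ad-Control and 976.1, 844.4 and 919.7 in Ad-MafG, so the groups overlapped through Ad-Control liver 2. Its log2 difference was 0.65 with an SE of 0.40 (limma adjusted p = 0.317).

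**Figure D2:**
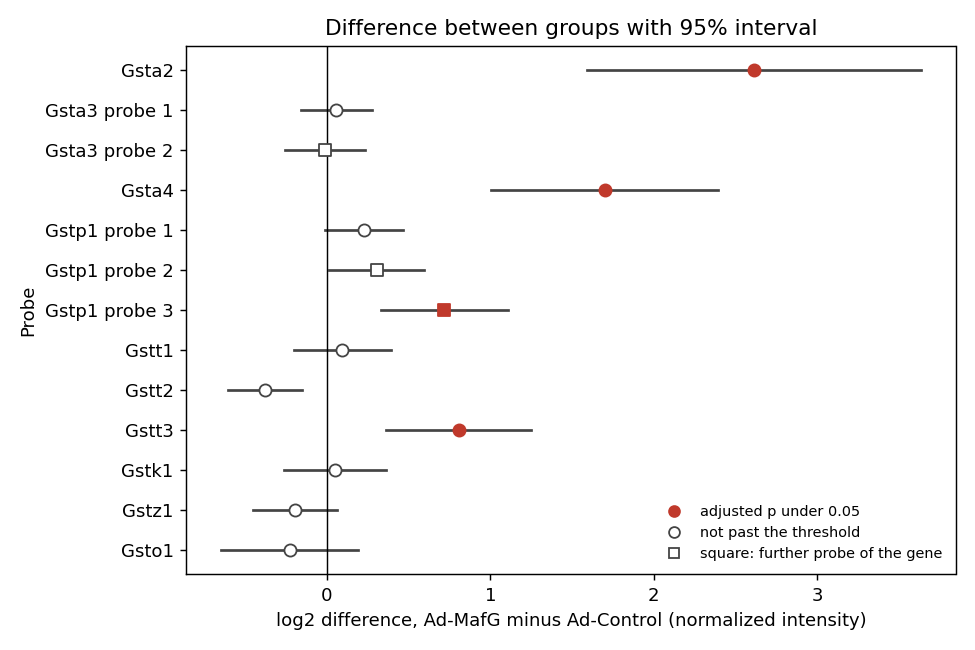
Log2 difference between Ad-MafG and Ad-Control (normalized intensity) of each probe with its 95% interval from limma, n = 3 per group; circles stand for their gene, squares are further probes, and filled symbols have an adjusted p under 0.05. Gsta2 at 2.61, Gsta4 at 1.70, Gstt3 at 0.81 and the dimmest Gstp1 probe at 0.72 are filled, and Gstt2 lies at -0.38.

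Theta class enzymes act on small halogenated compounds and on sulfate esters. Their genes gave different values although they lie side by side on chromosome 10 in the order Gstt3, Gstt1, Gstt4 and Gstt2, with 0 other protein-coding genes between them. Gstt3 gave 4458.4, 4208 and 5662.9 in Ad-Control and 8812.5, 7701.2 and 10774.8 in Ad-MafG, with every Ad-MafG liver above every Ad-Control liver. Its log2 difference was 0.81, SE 0.19 (limma adjusted p = 0.0424), and the 95% interval of the fold ran from 1.28 to 2.38.

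Gstt2 was the member with the lowest log2 difference. It gave 2136.7, 2488.6 and 2457.6 in Ad-Control and 2167.9, 2256 and 2122.4 in Ad-MafG, where the groups overlapped before normalization. After normalization they did not, the Ad-Control mean being 11.25 ± 0.06 (SD, n = 3) and the Ad-MafG mean 10.87 ± 0.07 (SD, n = 3). The log2 difference was -0.38 with an SE of 0.10, and it missed the threshold (limma adjusted p = 0.0521). It passed in 6 of 18 alternatives, each with all 6 arrays, and its value ran from -0.42 to -0.34 over all of them. For Gstt2, the authors' deposited table has mean scaled intensities of 2383.7 (Ad-Control) and 1826.8 (Ad-MafG). Its difference score there is -41.2, from an unknown error model. The genes nearest to Gstt2 in values were the protease inhibitor gene Serpina3n at a distance of 0.02, and the coagulation factor genes F13b and F9, each at 0.03. Their log2 differences were -0.39, -0.36 and -0.35, and none passed the test (limma adjusted p = 0.0579, 0.0509 and 0.0591). Here too the likeness to Gstt2 follows from the choice by distance.

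Gstt1 gave 4886.5, 4426.8 and 4293.4 in Ad-Control and 5573.3, 5522.3 and 5533.5 in Ad-MafG. These signals did not overlap before normalization, but the normalized values did, at 12.21 ± 0.21 and 12.30 ± 0.004 (SD, n = 3 each). Its log2 difference of 0.09 had a 95% interval from -0.20 to 0.39 (limma adjusted p = 0.648). The interval of Gstt2, from -0.61 to -0.15, lay wholly below 0 and that of Gstt3, from 0.36 to 1.25, wholly above it. Gstt4 had a probe that did not pass the detection filter.

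The kappa, zeta and omega genes did not pass the test. Gstk1, whose enzyme works in mitochondria and peroxisomes, gave 7069.5, 6282 and 7326.1 in Ad-Control and 7965.5, 8410.4 and 7217 in Ad-MafG. Its log2 difference was 0.05 with a 95% interval from -0.26 to 0.36 (limma adjusted p = 0.837), and the sign turned with median scaling, to -0.041.

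Gstz1 encodes maleylacetoacetate isomerase, a late step of tyrosine breakdown. It gave 18561.1, 20643.6 and 21991 in Ad-Control and 17325, 20482.3 and 17311 in Ad-MafG, and the groups overlapped through Ad-MafG liver 2. The log2 difference was -0.20 with a 95% interval from -0.45 to 0.06 (limma adjusted p = 0.269). It was -0.39 under median scaling and -0.41 from the authors' scaled values, neither past the threshold. For Gstz1, the authors' deposited table has means of 21685.8 (Ad-Control) and 16367 (Ad-MafG), with a difference score of -16.5. Of 3 other tyrosine breakdown genes tested, 0 passed limma's threshold and 1, the dioxygenase gene Hpd, had an unadjusted p under 0.05. Hpd had a log2 difference of -0.73 (adjusted p = 0.116), the aminotransferase gene Tat -0.16 and the fumarylacetoacetase gene Fah -0.10. Signals of the Tat probe, 182.7 to 239.2, lay little above the arrays' median signals of 160.6 to 185.8.

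Gsto1 encodes an omega class enzyme that reduces dehydroascorbate and removes glutathione from proteins. Its signals of 6206.5, 6731.7 and 8127.9 in Ad-Control overlapped with 6458.7, 5507.2 and 8290.1 in Ad-MafG. The log2 difference was -0.23 with a 95% interval from -0.65 to 0.19 (limma adjusted p = 0.426). It was -0.085 without Ad-MafG 2 and -0.39 without Ad-MafG 3, and did not pass in either fit.

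The normalized values of the gene-level probes did not overlap between groups for 4 members that were higher, namely Gsta2, Gsta4, Gstp1 and Gstt3, and for 1 that was lower, Gstt2. Over all genes tested, 18.3% were higher and 17.9% lower without overlap.

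The calls on the 3 members that rose depended on single arrays, as did the number of calls over all genes. With all 6 arrays 9.88% of the genes tested were called. That share was 13.5% without Ad-Control 2 and 1.12% to 3.8% in the other fits with 1 array left out, which have fewer samples. Gsta2 missed the threshold without Ad-Control 1, Ad-MafG 1 or Ad-MafG 3, with an adjusted p of up to 0.0714, and its log2 difference stayed between 2.12 and 3.01 over the 6 fits with 1 array left out. Gsta4 missed it when Ad-Control 1, Ad-Control 3 or else Ad-MafG 1 was left out (highest adjusted p 0.0679), with a value from 1.40 to 1.97. Gstt3 missed it without any 1 array, with an adjusted p of up to 0.123 and a value from 0.66 to 0.93. With all 6 arrays and no replicate term, Gstt3 also missed it with the authors' scaled values (0.0626) and with no detection filter (0.065).

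**Figure D3:**
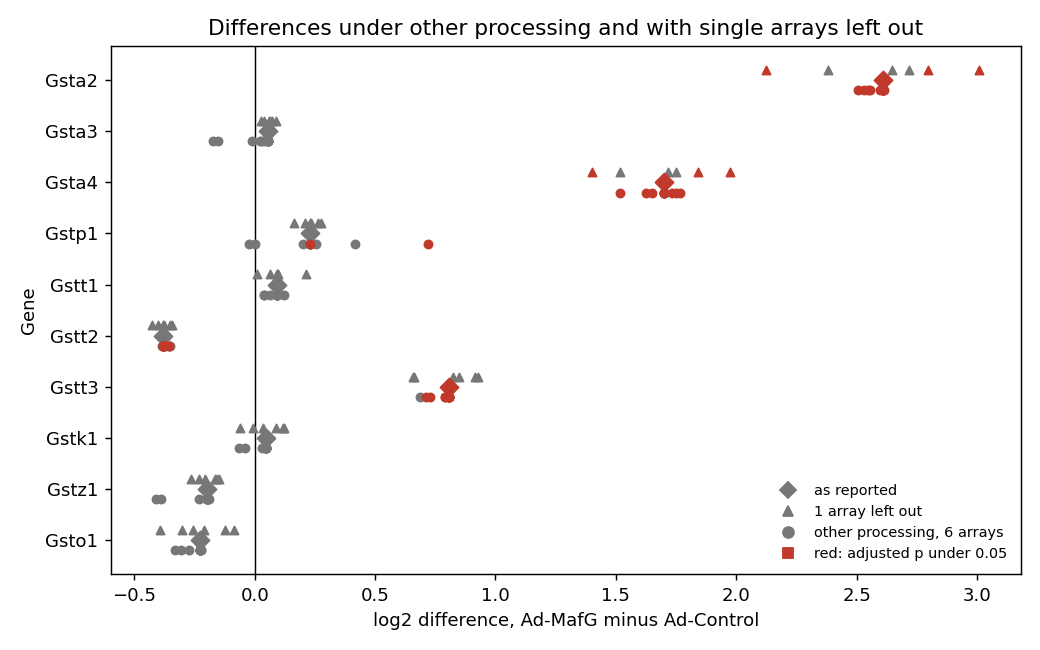
Log2 difference of each member as reported (diamonds), with 1 array left out (triangles) and under other processing of all 6 arrays (circles); red marks an adjusted p under 0.05. Gsta2, Gsta4 and Gstt3 stay above 0 throughout, at the lowest 2.12, 1.40 and 0.66, and the points of Gstp1 spread from -0.02 to 0.72.

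Mu class glutathione transferases were read beside the members. Of 6 tested, 5 rose and 0 fell, with a median log2 difference of 1.15, also with Gstm3 at its bound. Gstm3, not above background in any liver of the Ad-Control group, was higher by at least 11.8-fold, and Gstm1, Gstm2, Gstm4 and Gstm6 had log2 differences from 0.83 to 1.65. Gstm5 had -0.03 (limma adjusted p = 0.908). These genes are close in sequence, and their separate values are uncertain. The number of mu class calls fell to 0 without Ad-MafG 1, to 1 without Ad-MafG 3 and to 3 without Ad-MafG 2. In each of these fits 5 mu class genes were tested. Gstm3 was above background only in Ad-MafG, so it no longer passed the detection filter. Whether the mu class differs from the members was not tested.

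Membrane-bound transferases and their relatives, the MAPEG family, rose for 2 of 5 genes tested, with 0 lower and a median of 0.62, also with Mgst2 at its bound. Mgst3, a microsomal transferase and peroxidase, gave 1423.1, 1341.1 and 1024.8 in Ad-Control and 4869.5, 3887 and 7054.6 in Ad-MafG, a log2 difference of 1.91 with an SE of 0.25 (limma adjusted p = 0.0112). Like Gsta2 and Gsta4, Mgst3 was highest in Ad-MafG liver 3 and lowest of that group in liver 2. Mgst2 was at least 3.34-fold higher, with its probe not above background in Ad-Control. Mgst3 was the 1 gene of the family called when Ad-Control 1, Ad-Control 3 or any 1 Ad-MafG array was left out. Mgst2 was not tested when an Ad-MafG array was left out, since it no longer passed the detection filter. Mgst1, the abundant microsomal form in liver, had 0.02, and the leukotriene genes Alox5ap and Ltc4s had 0.62 and 0.47 without passing. Of the 3 further cytosolic genes tested, only Gsta1 rose, whose signal may not be separate from that of Gsta2, and Hpgds had 0.29. Gsta1 did not pass when Ad-Control 1 or any 1 Ad-MafG array was left out.

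Of 7 genes of glutathione synthesis and recycling tested, Gclc, the catalytic subunit of the first and rate-limiting enzyme, alone passed the threshold. It had a log2 difference of 1.45 with an SE of 0.21 (limma adjusted p = 0.0124). The list's median was 0.48. Ggct, Gss and Gclm had values of 0.59, 0.60 and 0.35 (limma adjusted p = 0.0525, 0.0693 and 0.128), while Oplah had -0.26. Of the 7 genes, 3 passed with no background correction, median scaling, an offset of 50 or trend and robust eBayes. The authors' scaled values called 2 and array weights 1. No call on Gclc was made without Ad-MafG 1. Of 8 genes that act after conjugation, in the mercapturic acid pathway and conjugate export, 0 rose and 1 fell, with a median of -0.37. The gene that fell was Acy1, an aminoacylase that can remove the acetyl group from mercapturic acids. It gave 2189.6, 2258.7 and 2181.3 in Ad-Control and 1734.6, 1930.5 and 1637.6 in Ad-MafG, and its log2 difference was -0.61, SE 0.12 (limma adjusted p = 0.0277). Acy1 did not pass when Ad-Control 1, Ad-Control 3, Ad-MafG 1 or Ad-MafG 3 was left out. The aminopeptidase gene Anpep had -0.32, Ggt6 -0.32, the cysteine conjugate lyase gene Kyat3 -0.45 and the canalicular pump gene Abcc2 -0.42, none past the threshold. The groups of Abcc2 overlapped, and its highest signal, 2443.2, was in Ad-MafG liver 3. Of the 8 genes, 6 lay below 0 and 2 above it, Kyat1 at 0.26 and Cndp2 at 0.0007.

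**Figure D4:**
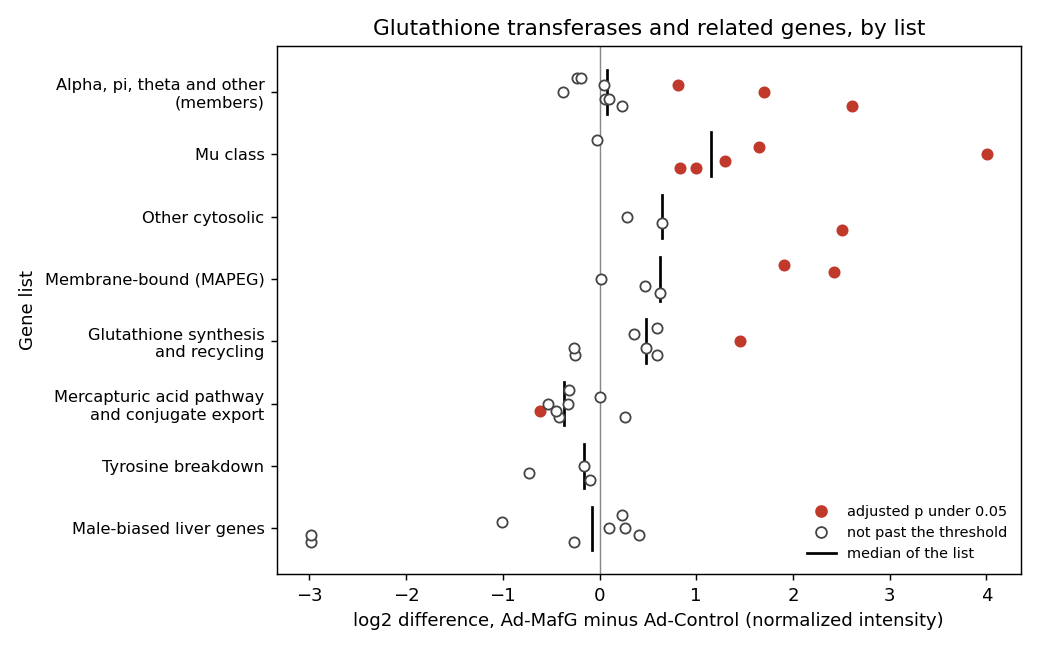
Log2 difference between Ad-MafG and Ad-Control (normalized intensity) of each gene tested, by list; filled points have an adjusted p under 0.05 and black lines are list medians. Fitted values are drawn for Gstm3 and Mgst2, whose folds in the text are lower bounds; 3 of 10 members, 5 of 6 mu class genes and 1 gene of the mercapturic acid list, to the left of 0, are filled.

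Because Gstp1 is higher in male than in female mouse liver, other genes with that bias were read beside it. Of 8 tested, 0 passed limma's threshold in either direction, 3 had an unadjusted p under 0.05, and the median log2 difference was -0.08. Hsd3b5 had a log2 difference of -2.98 (limma adjusted p = 0.0524), Cyp7b1 -1.01 and Cyp2d9 -0.27. Signals of the Hsd3b5 probe were 374.4, 2332.1 and 978.3 in Ad-Control and 365.8, 282.7 and 178 in Ad-MafG. It was above background on only 2 of the 3 Ad-MafG arrays, so the size of this difference is uncertain. The probe of Moxd1 gave 195.1, 1588.8 and 204.3 in Ad-Control and was above background on 0 of the 3 Ad-MafG arrays (148.9, 151.8 and 138.7), so its signal was high in 1 liver and no fold is given. Cyp4a12a had 0.41, Cyp4a12b 0.27, Elovl3 0.23 and Selenbp2 0.10, so the list did not lie on 1 side of 0.

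Markers of other liver cells moved with the groups. Among Kupffer cell and macrophage markers, 5 of 9 tested rose and 0 fell, and their summed normalized intensity was 12076 to 15593 in Ad-Control and 23616 to 26442 in Ad-MafG. The other 4, which mark resident Kupffer cells, did not pass: Marco had a log2 difference of -1.06 and Timd4 -1.48, against 0.27 for Clec4f and 0.24 for Vsig4. The Timd4 probe gave 342.8, 269.6 and 338.6 in Ad-Control and 172.5, 467.3 and 157.9 in Ad-MafG. It was above background on only 1 of the 3 Ad-MafG arrays, and its groups overlapped. Stellate cell and fibroblast markers rose for 4 of 10 and fell for 0, with sums of 11846 to 12614 and 13276 to 16146. Col1a2, 1 of the 4, was not above background in any Ad-Control liver. The list's median log2 difference was 0.71, and 0.65 with Col1a2 at its bound. Over all genes tested, 6.28% were called higher and 3.6% lower. Hepatocyte markers had 0 of 6 past the threshold and 6 of 6 below 0, with a median of -0.16. Their sums were 144041 to 152113 and 134207 to 142805. The lowest of the 6 values, -0.34, came from the Alb probe. Its signals of 196.2 to 245.1 lay little above the arrays' median signals of 160.6 to 185.8. Of the cholangiocyte markers on the array, Krt7, Krt19 and Cftr did not pass the detection filter and Sox9 had a log2 difference of -0.13 (limma adjusted p = 0.76). Sinusoidal endothelial markers had 0 of 4, neutrophil markers 0 of 2, T and NK cell markers 0 of 3 and B cell markers 0 of 1 past the threshold, and of 2 erythroid markers Alas2 fell. The part of these shifts in the members' values was not tested.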

How the data were processed

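Total RNA of 6 whole livers was extracted with QIAzol and RNeasy and labelled as biotinylated cRNA with a TotalPrep kit, per the labels' protocols. The deposited intensity of each probe is the non-normalized mean bead signal, with a detection p-value, per the file headers; the sources used here name no scanner software. The second deposited table holds intensities scaled by the authors, a straight line of each array's signal, linear and uncentred. Its column medians were 34.2 to 46.0, and the scaling method is not given. The slopes were 1.195, 0.962 and 1.066 in Ad-Control and 0.885, 0.931 and 0.872 in Ad-MafG, each Ad-MafG slope below each Ad-Control slope. The third table, deposited by the authors, gives group means and a signed difference score, per the file headers, whose error model is unknown.

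Groups were taken from the sample titles. Signals were processed with limma 3.58.1 in R 4.3.3: normexp background correction (fitted through the detection p-values), offset 16, quantile normalization and log2. Probes detected at p under 0.05 on at least 3 arrays were kept (12893), and the brightest probe stood for each gene (8827 genes). Groups were compared with lmFit and eBayes, by two-sided tests; p-values were adjusted by Benjamini-Hochberg over genes, or over all kept probes for further probes of a gene, and a threshold of 0.05. Where no probe of a gene was detected in a group, the fold is a lower bound: in that group each array's value was raised to at least the lowest signal of any detected probe on the array before averaging. All arrays share 1 slide number, so no slide term was fitted. Each array is a separate mouse, per the series' design text.

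Members and gene lists were chosen with earlier results of these data known. Named were all members, of each pathway list every gene past the threshold and otherwise up to 4 tested genes with the smallest unadjusted p, and the 3 genes nearest in values to the members with the highest and lowest log2 difference; further named list genes were chosen after their values were seen. Genes were named from the platform annotation, and 23962 probes had an Entrez number found in the RefSeq table. Alternatives covered background correction, normalization, the authors' values, the filter, the offset, moderation, array weights, the probe chosen, a replicate block and each array left out.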

Additional observations from a re-analysis of the deposited data

How the results depend on the processing

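Gsta2, Gsta4, Gstt1 and Gstt3 kept a positive sign and Gstt2, Gstz1 and Gsto1 a negative sign in all 18 alternatives. Of the 12 alternatives with all 6 arrays, Gsta2 and Gsta4 passed in 11 and Gstt3 in 9. The sign of Gsta3 turned with median scaling (-0.15), the authors' scaled values (-0.17) and the dimmest probe (-0.013), that of Gstp1 with median scaling (-0.000655) and the authors' values (-0.024), and that of Gstk1 with median scaling (-0.041), the authors' values (-0.066) and, with single arrays left out, without Ad-Control 2 or Ad-MafG 2 (from -0.060 to 0.12 over the 6 fits); the cause was not tested. The members' median was -0.021 with median scaling and -0.045 with the authors' values. Taking the dimmest probe for each gene, an alternative chosen after seeing the data, gave Gstp1 0.72 (adjusted p = 0.0437).

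Trend and robust eBayes called 5 members, adding Gstp1 (adjusted p = 0.0493) and Gstt2, and 1317 genes in all; no background correction called 1315. Of all 872 calls 63.5% were higher, and with median scaling 75.3% were. Leaving out single arrays called 0 to 2 members (0 without Ad-Control 1 or Ad-MafG 1, 1 without Ad-Control 3 or Ad-MafG 3), 96 to 1176 genes (332, 247, 96, 278 and 157 without Ad-Control 1, Ad-Control 3, Ad-MafG 1, Ad-MafG 2 and Ad-MafG 3) and 1 to 12 listed pathway genes, against 10 with all arrays (1, 6 and 3 without Ad-MafG 1, 2 and 3); each such fit has fewer samples. Deviations from group means correlated at 0.04, -0.14 and -0.12 between same-numbered livers, so the numbers were not taken as pairs; a replicate block called 0 members (the same log2 differences, with an adjusted p from 0.05 to 0.0737 for the 3 that rose), 69 genes and 2 pathway genes. When an Ad-MafG array was left out, 38 rather than 40 listed pathway genes were tested, since Gstm3 and Mgst2 no longer passed the detection filter. Signals of the members lay far above background, and 3 arrays per group limit the precision.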
